A study of Mus musculus with 40 samples.

Results

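Protocadherins form the largest branch of the cadherin family of adhesion receptors, and 69 of the 26906 genes in the count table carry a symbol that begins with Pcdh. All 69 were taken, by symbol alone. Of these, 57 belong to the 3 gene clusters on chromosome 18 (Pcdha, Pcdhb and Pcdhg) and 12 lie outside them. The libraries came from CGR8, a mouse embryonic stem cell line of strain 129, gathered into epiblast-like aggregates in serum-free N2B27 medium with Activin-A, Fgf2 and KSR. Aggregates were left untreated or exposed between 0 and 72 h to XAV939, which inhibits tankyrase, stabilises Axin and damps canonical Wnt signalling. The 10 groups are the untreated and the XAV939 arm on day 3, day 4, day 5, day 6 and day 7, each with 4 libraries. Untreated titles carry the words no matrigel and XAV939 titles are silent on it, so a difference in matrigel between the arms cannot be told apart from XAV939. All libraries share 1 cell line. Nothing in the labels tells whether the 4 libraries of a group were grown apart, so a p-value here reflects the spread among libraries, which may be technical.

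The clustered genes sit in tandem arrays in which each variable exon has its own promoter. In the Pcdha and Pcdhg clusters the variable exon is spliced to constant exons shared by the whole cluster, whereas most Pcdhb genes are a single coding exon. Neurons choose among the alternate promoters at random, with CTCF and cohesin looping a chosen promoter to a distant enhancer, and the resulting set of proteins on the surface lets a neuron recognise its own branches. The C-type genes Pcdhac1, Pcdhac2, Pcdhgc3, Pcdhgc4 and Pcdhgc5 at the ends of the arrays are known to follow other rules and are used more evenly across cells. Protocadherins outside the clusters are single genes with tissue-restricted patterns. Most belong to the delta group, which acts in cell sorting, in somite formation and in the wiring of the nervous system.

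Between 30197759 and 44086019 counts were deposited per library. Levels are given in CPM on library sizes adjusted by TMM, and differences are log2 fold changes with their standard error (SE). Adjusted p-values are edgeR's, from its quasi-likelihood F test on 16878 genes, and a gene was called below 0.05. Of the 69 protocadherins 53 had enough counts to be tested, 42 clustered and 11 other. The 16 that were not tested were 11 Pcdha genes, Pcdhb1, Pcdhb9, Pcdhb10, Pcdhb13 and Pcdh15. Of the 42 tested clustered genes 37 averaged under 10 counts a library on day 3 and so passed the filter through later days. These are bulk libraries, in which fewer cells of a type and less RNA per cell cannot be told apart. The summed level of 8 primed epiblast markers ran from 3119 to 3772 CPM in the untreated libraries of day 3 and from 279 to 330 CPM on day 7, and the part of that shift in the protocadherin changes was not tested. By Dixon's test 2 untreated libraries stood apart in the summed clustered genes. Library 1 of day 4 held 127 CPM where the other libraries of its group held 38.9 to 53.3 CPM, and library 1 of day 7 held 174 CPM where the others held 135.6 to 142 CPM. Library 3 of day 6 was the lowest of its group, at 50.01 CPM where the others held 106 to 151 CPM, without passing that test. Its low values were not particular to clustered genes. It was also lowest in 2 lists described below, the regulators of the clustered promoters (3363 CPM, others 4856 to 5345) and the other cadherin superfamily (918 CPM, others 1629 to 1826). In the members outside the clusters it held 181 CPM in a group of 175 to 221 CPM. In the paraxial and presomitic markers it was the highest, at 386 CPM.

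Promoter sequence is shown for 3 protocadherins of chromosome 14 whose levels took different courses, Pcdh8 (highest mean on day 6), Pcdh17 (highest on day 7) and Pcdh9 (highest on day 3 in untreated aggregates and called for XAV939 on day 6). The windows are the 250 bases before the annotated start in RefSeq (GRCm38.p6), none of which are exon. They lie at chr14:79771313-79771562 on the minus strand for Pcdh8, chr14:84443313-84443562 on the plus strand for Pcdh17 and chr14:93890680-93890929 on the minus strand for Pcdh9. Capitals mark a match to a TATA box (TATAAA) or a GC box (GGGCGG), read on both strands.
Pcdh8: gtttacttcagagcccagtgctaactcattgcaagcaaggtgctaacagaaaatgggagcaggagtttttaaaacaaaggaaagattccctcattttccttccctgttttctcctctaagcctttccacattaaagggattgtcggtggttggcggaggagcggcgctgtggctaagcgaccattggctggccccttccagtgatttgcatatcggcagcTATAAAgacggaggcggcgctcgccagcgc
Pcdh17: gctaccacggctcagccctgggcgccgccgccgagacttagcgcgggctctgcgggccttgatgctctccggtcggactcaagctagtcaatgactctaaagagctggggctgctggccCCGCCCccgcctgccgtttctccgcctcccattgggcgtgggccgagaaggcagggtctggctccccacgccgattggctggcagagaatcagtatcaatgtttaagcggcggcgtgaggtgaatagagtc
Pcdh9: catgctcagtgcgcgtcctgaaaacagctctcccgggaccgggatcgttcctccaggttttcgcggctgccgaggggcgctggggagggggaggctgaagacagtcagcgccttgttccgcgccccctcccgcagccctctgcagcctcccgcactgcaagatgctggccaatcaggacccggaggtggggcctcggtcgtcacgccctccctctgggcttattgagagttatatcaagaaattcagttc
Over 32536 windows of this length 12.3% held TATAAA and 33% held GGGCGG, with a median GC content of 52.4% and a median of 6 CpG. The Pcdh8 window held TATAAA 30 bases before the start, with 51.2% GC and 11 CpG. The Pcdh17 window held the reverse complement of GGGCGG, with 64.8% GC and 21 CpG. The Pcdh9 window held neither motif, with 63.6% GC and 18 CpG. Searches for an E-box (CACCTG), a TCF/LEF site (CTTTGAT) and a T-box site (TCACACCT), held by 17.3%, 3.21% and 1.12% of all windows, found no match in these 3 windows. RefSeq promoter entries were matched for 9 of the 12 members outside the clusters.

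From day 3 to day 7 the untreated aggregates went from near absence of clustered protocadherin RNA to a broad set of it. The summed level of the 57 clustered genes was 6.53 CPM on day 3, 64.6 on day 4, 134 on day 5, 107 on day 6 and 148 on day 7 (means of 4 libraries). In the XAV939 arm the same sums were 6.20, 47.1, 134, 120 and 150 CPM. All 42 tested clustered genes were called higher on day 7 than on day 3 in the untreated arm and in the XAV939 arm, where 34.7% and 36.8% of all tested genes were called higher. The filter favours such a count, because most of these genes were kept for their later levels. With no filter other than 1 count in all, 46 of the 57 clustered genes and 8 of the 12 others were called higher in untreated aggregates, against 23.8% of 26398 genes. The median log2 difference of the 42 genes was 5.53 in untreated and 5.75 in XAV939 aggregates, or 5.08 and 5.21 with the genes at 0 on day 3 set to their lower bound (9 genes in each arm, not the same 9), and the median of all tested genes was 0.03 and 0.04.

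Of the 11 tested protocadherins outside the clusters 8 were called higher on day 7 in each arm, and Pcdh1 was called lower, as were 32.6% and 34.1% of all tested genes. Pcdh9 and Pcdh20 were not called in either arm. The summed level of the 12 members outside the clusters started higher than that of the clustered genes and had its highest mean earlier. It was 58.5, 156, 210, 196 and 145 CPM from day 3 to day 7 in untreated aggregates. On day 5 library 1 held 285 CPM where the others held 165 to 205 CPM, and the libraries of day 6 held 175 to 221 CPM. In XAV939 aggregates the summed level was 56.9, 167, 164, 192 and 149 CPM.

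**Figure D1:**
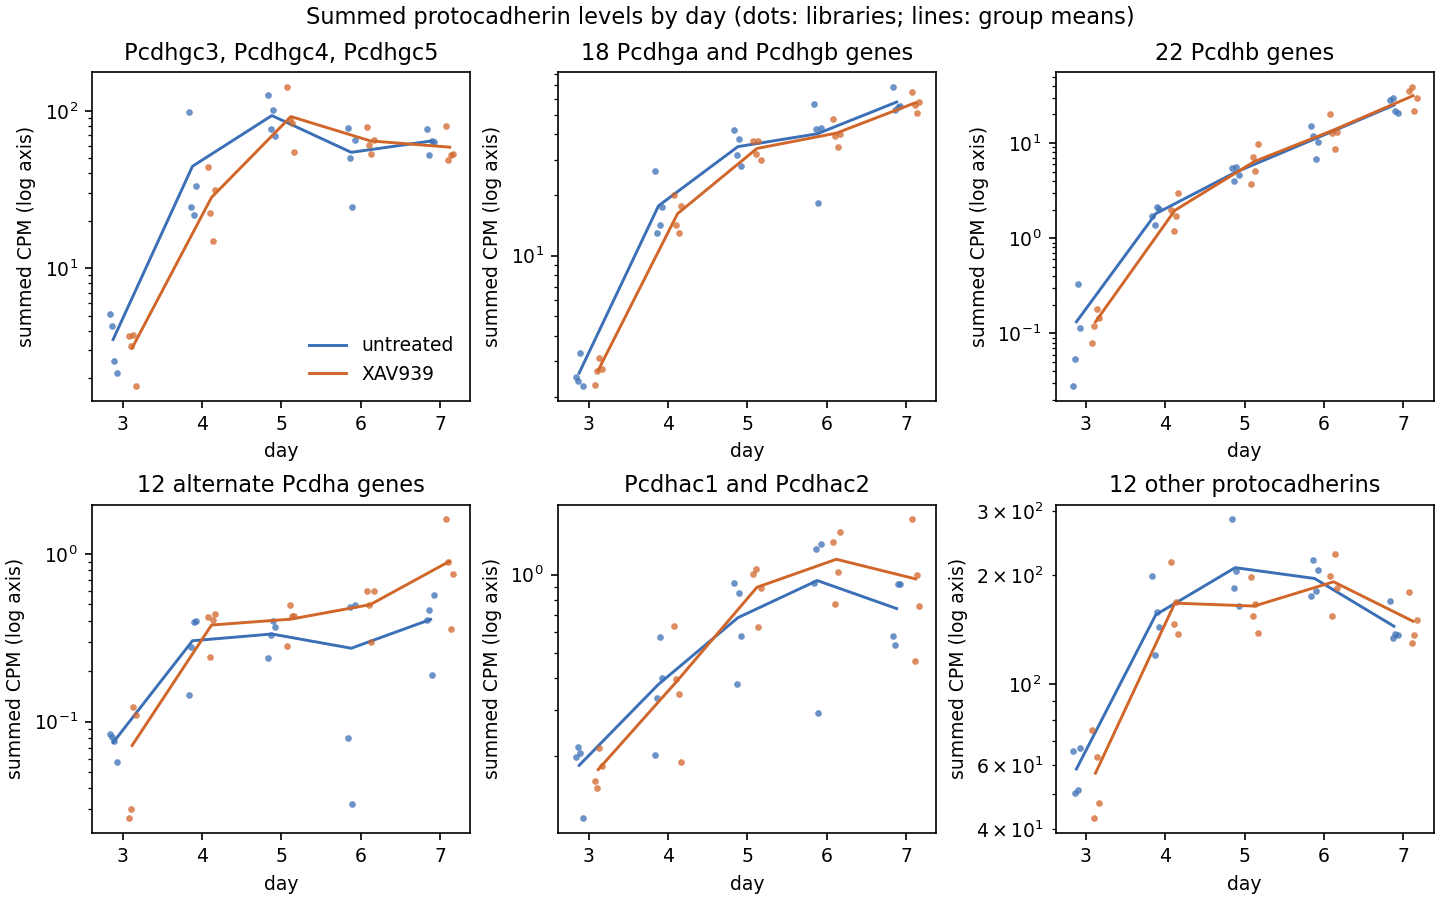
Summed CPM (log axis) of 6 protocadherin classes against day, with a dot for each library and lines through the group means of 4 libraries, untreated in blue and XAV939 in orange. The Pcdhb genes were higher on each day than on the day before in both group means, whereas Pcdhgc3 to Pcdhgc5 were highest on day 5.

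The steps between days are given by class, and differences between classes were not tested. From day 3 to day 4, 32 of the 42 tested clustered genes were called higher and 0 lower, beside 17.6% and 15.1% of all tested genes. These 32 were all 12 Pcdhga, all 6 Pcdhgb, 10 of 18 Pcdhb, 3 of 5 C-type genes and Pcdha12. From day 4 to day 5, 17 clustered genes were called higher and 0 lower, beside 10.5% and 8.17% of all genes. The count of all protocadherins called higher at that step, 22, was 13 without library 2 of day 4 and 14 without library 1 of day 5. From day 5 to day 6 the 6 clustered genes called higher were all Pcdhb genes, and Pcdhgc4 and Pcdhgc5 were called lower, beside 11.1% and 8.72% of all genes. The count of all protocadherins called higher there, 8, was 5 without library 1 of day 6 and 13 without library 3 of day 6, when Pcdhga11 and Pcdhgb4 were among those called. From day 6 to day 7, 5 Pcdhb genes and Pcdhgb2 were called higher, beside 5.17% of all genes called higher and 7.02% called lower. With Pcdh12 and Pcdh10 the count was 8, and it was 16 without library 1 of day 6, 3 without library 3 of day 6 and 5 without library 1 of day 7. A fit of only the 8 libraries compared filtered anew and so tested fewer protocadherins. From day 3 to day 4 it tested 17 clustered and 8 other members and called 23 higher, all 17 and 6 of the 8, in place of 39. It called 17.5% of all its tested genes higher there. A fit of only the libraries of day 3, both arms, kept 6 clustered genes. Most of the 17 therefore passed the filter through day 4, and the filter favours such a count. The fit of only the libraries compared gave 12 in place of 22 from day 4 to day 5 (24 clustered and 9 other tested, 7.95% of all genes). From day 5 to day 6 it gave 5 in place of 8 (31 and 9 tested, 5.58%). From day 6 to day 7 it gave 1 in place of 8 (37 and 9 tested, 1.41%). A block on replicate number shared by all days gave 15 protocadherins called higher from day 6 to day 7 (7.85% of all genes). It gave 5 in place of 3 lower from day 5 to day 6 (11.1%). That block treats libraries of the same number as matched across days, although days were not taken as paired.

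The Pcdhg cluster supplied most of the clustered RNA, and Pcdhgc3 was its most abundant gene. Pcdhgc3 (chr18:37806364-37841873, plus strand, GENCODE M21) is a C-type gene found in many tissues outside the brain as well. Untreated libraries 1 to 4 held 3.98, 3.10, 1.95 and 1.61 CPM on day 3. On day 5 they held 112, 64.5, 86.2 and 56.1 CPM, and on day 7 70.6, 45.0, 57.6 and 57.0 CPM. Every library of day 7 lay above every library of day 3, as for 33.8% of all tested genes. Day 7 exceeded day 3 by a log2 difference of 4.43 (SE 0.45, adjusted p = 1.67e-10) in untreated and 4.48 in XAV939 aggregates. Its largest step was from day 3 to day 4, with a log2 difference of 3.78 that was 3.01 without library 1 of day 4, which held 82.2 CPM where the others held 17.7 to 26.4 CPM. Pcdhgc3 was 42.1% of all Pcdhg counts on day 3, 61.5% on day 5 and 47.0% on day 7 in untreated aggregates, and 39.6%, 62.1% and 45.1% with XAV939.

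Pcdhgc4 and Pcdhgc5, the neighbouring C-type genes, shared the maximum on day 5. Pcdhgc4, whose loss is known to cause the death of interneurons, averaged 0.226 ± 0.0257 CPM (SD, n = 4) on day 3. It held 11.9, 9.84, 11.2 and 10.3 CPM in the untreated libraries of day 5, 4.80, 4.14, 2.78 and 5.39 CPM on day 6, and a mean of 4.80 ± 0.519 CPM (SD, n = 4) on day 7. The groups of day 5 and day 6 did not overlap, with day 6 lower as for 7.97% of all tested genes, and the log2 difference between them was -1.33 (SE 0.33, adjusted p = 0.00341). Pcdhgc5 averaged 0.636 CPM on day 3, 2.83 on day 5 and 1.81 on day 7, a log2 difference of 1.51 from day 3 to day 7 (adjusted p = 0.000364). Its day 6 call (adjusted p = 0.0266) was lost on leaving out any 1 of 4 libraries. In the Pcdha cluster, Pcdhac1 went from 0.0408 to 0.244 CPM (log2 2.45, adjusted p = 0.00061) and Pcdhac2 from 0.142 to 0.496 CPM (log2 1.76, adjusted p = 0.00195). Both stayed under 1 CPM in the untreated group means of every day.

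The 18 alternate Pcdhg genes, 12 Pcdhga and 6 Pcdhgb, were present at low levels from the start, and all 18 were called higher on day 4 than on day 3. In the untreated libraries of day 3 a mean of 16.25 of these 18 genes had at least 1 count, and from day 4 on all 18 did. Their summed level was 2.62 CPM on day 3, 17.7 on day 4, 34.8 on day 5, 40.3 on day 6 and 57.9 on day 7 in untreated aggregates, and 57.5 CPM on day 7 with XAV939. Pcdhga11 held 0.565, 0.458, 0.487 and 0.402 CPM on day 3 and 9.40, 6.92, 7.79 and 7.24 CPM on day 7 in the untreated libraries. The log2 difference was 4.03 (SE 0.31, adjusted p = 1.82e-13). Pcdhga7 went from 0.280 to 7.21 ± 1.15 CPM (SD, n = 4), a log2 difference of 4.67 (SE 0.32, adjusted p = 1.19e-14). Pcdhga5 had 3 counts over the 4 untreated libraries of day 3 and averaged 3.41 ± 0.522 CPM (SD, n = 4) on day 7. Pcdhgb6 had 4 counts over those libraries and held 5.04, 3.10, 4.39 and 3.76 CPM on day 7. Its log2 difference was 7.04 (adjusted p = 1.89e-13), and 8.34 without library 1 of day 3, which held most of the day 3 counts. Pcdhgb7 went from 0.0545 to 3.47 ± 0.762 CPM (SD, n = 4), a log2 difference of 5.90 (adjusted p = 2.95e-11) in untreated and 4.44 in XAV939 aggregates, the last being 5.27 without library 1 of day 3. Genes of this cluster share their constant exons, and Pcdhga10 had 1719 counts although no exon base of it is unshared, so the split of reads among Pcdhg genes is uncertain.

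The Pcdhb genes had their highest summed level on day 7, the last day sampled. A mean of 3.75 of the 22 Pcdhb genes had a count in the untreated libraries of day 3, 16.5 on day 4 and 21 on day 7. Their summed level was 0.132, 1.82, 4.92, 11.1 and 25.0 CPM from day 3 to day 7. In the same order their share of the clustered RNA was 2.17%, 3.54%, 3.76%, 10.8% and 17.0%. Pcdhb22, the gene at the end of the array and the most abundant of the 22, had 6 counts over the untreated libraries of day 3. It averaged 1.42 CPM on day 5 and held 7.48, 8.07, 6.39 and 5.18 CPM in the libraries of day 7. The log2 difference from day 3 to day 7 was 7.26 (SE 0.49, adjusted p = 1e-14), or 9.04 without library 3 of day 3. Pcdhb19 had 0 counts in all 8 libraries of day 3 and held 3.79, 3.51, 2.73 and 2.64 CPM in the untreated libraries of day 7, at least 155-fold above a floor of 3 counts over the day 3 group. With XAV939 it was at least 133-fold above that floor. Such floors cover counting error only.

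Within the Pcdhb array the genes nearest the Pcdhg cluster were the most abundant per length in untreated aggregates of day 7. On that day the 7 genes Pcdhb16 to Pcdhb22 ran from 0.229 to 1.10 CPM per kb of unshared exon in untreated aggregates, with a median of 0.444. The 15 genes Pcdhb1 to Pcdhb15 ran from 0 to 0.228, with a median of 0.119. With XAV939 the ranges of day 7 overlapped, at 0.278 to 1.13 (median 0.510) and 0 to 0.414 (median 0.209) CPM per kb. On day 5 the untreated ranges overlapped too, at 0.0272 to 0.231 and 0.00639 to 0.114 CPM per kb. The split at Pcdhb16 was chosen after the values were seen and was not tested, and the exons of Pcdhb21 and Pcdhb22 overlap.

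The 12 alternate Pcdha genes stayed near the limit of detection. Their summed level was 0.075 CPM on day 3 and 0.407 CPM on day 7 in untreated aggregates, and 0.072 and 0.906 CPM with XAV939. The XAV939 libraries of day 7 held 1.61, 0.902, 0.358 and 0.755 CPM and the untreated ones 0.402, 0.463, 0.191 and 0.573 CPM, so the groups overlapped. Only Pcdha12 could be tested. It had 3 counts over the untreated libraries of day 3 and averaged 0.197 ± 0.115 CPM (SD, n = 4) on day 7 (adjusted p = 0.00213). A pair of gene entries share the symbol Pcdha11, and neither was tested.

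The level per kb of unshared exon on day 7 in untreated aggregates was 31.6 CPM per kb for Pcdhgc3, 6.24 for Pcdhga11, 2.81 for Pcdhga7, 1.38 for Pcdhgc4 and 1.10 for Pcdhb22. For members outside the clusters it was 9.55 for Pcdh18, 5.07 for Pcdh8, 4.16 for Pcdh7 and 1.49 for Pcdh1. The whole count of a gene was divided by its unshared bases, and that count may hold reads from shared exons. Genes with shared exons, such as the Pcdhg genes, may therefore be set too high beside genes without them. Per kb of all exons Pcdhgc3 was at 10.5, since its constant exons are shared.

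**Figure D2:**
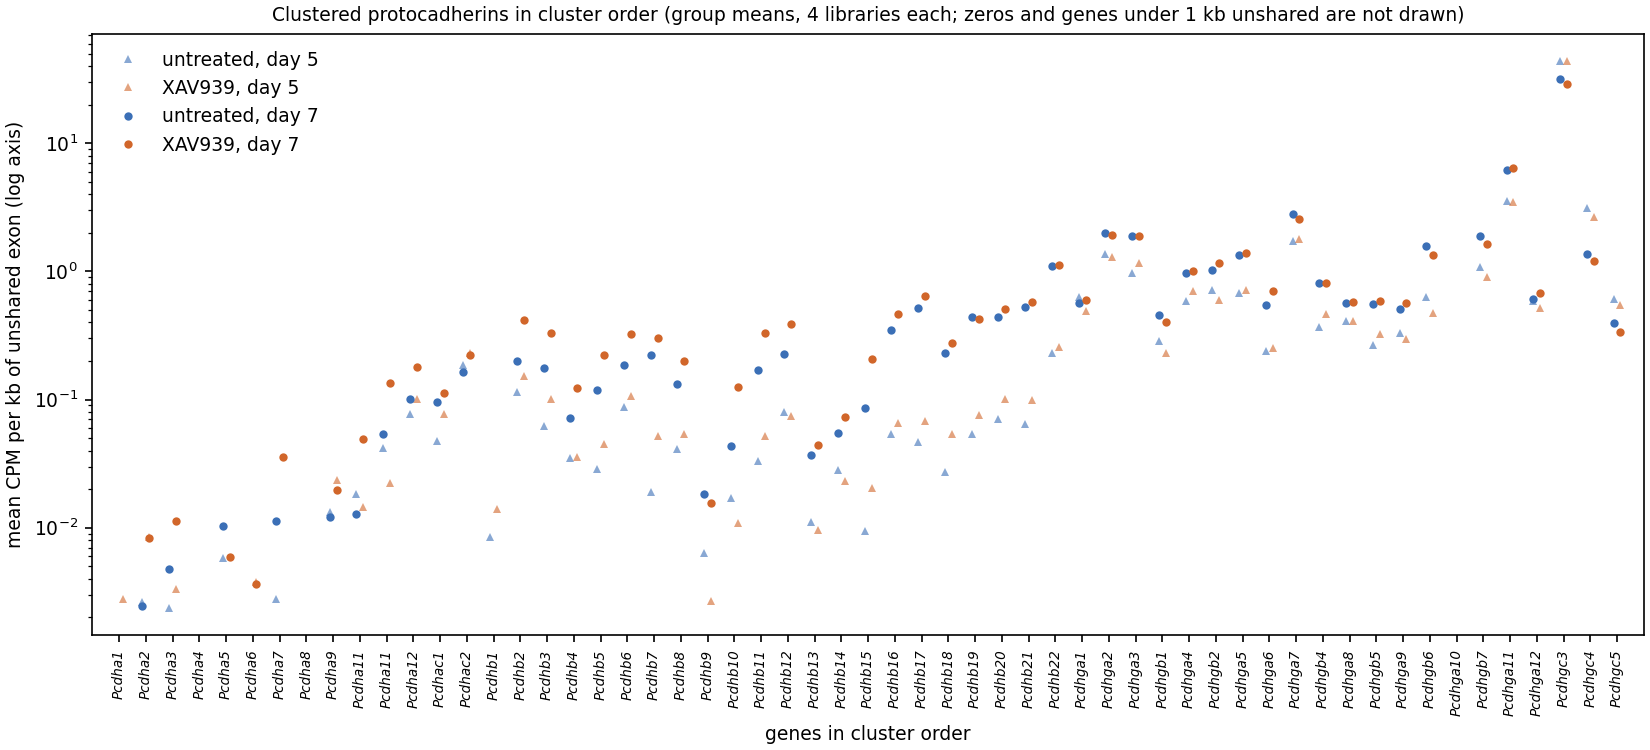
Mean CPM per kb of unshared exon (log axis) of the clustered protocadherins in the order of the chromosome, for days 5 (triangles) and 7 (circles) and both arms, 4 libraries each. Levels on day 7 lay under 0.2 CPM per kb across the Pcdha genes except Pcdhac2 in the XAV939 arm, and Pcdhgc3 was the highest point of each group. The whole count of each gene was used, so genes with shared exons may be set too high.

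Among the protocadherins outside the clusters, Pcdh1 was the 1 called lower on day 7 than on day 3 in both arms. Pcdh1 (chr18:38185914-38212053, minus strand) is an adhesion molecule of epithelia. Its untreated libraries held 59.7, 45.0, 42.3 and 59.4 CPM on day 3, 106, 80.3, 122 and 90.5 CPM on day 4, and 15.3, 23.2, 18.4 and 18.6 CPM on day 6. On day 7 they held 13.5, 13.5, 11.8 and 13.7 CPM. The groups of days 3 and 7 did not overlap, with day 7 lower as for 32.1% of all tested genes, and the log2 difference was -1.97 (SE 0.30, adjusted p = 4.65e-07), or -2.51 (SE 0.30) with XAV939. The level rose from day 3 to day 4 (log2 0.95, adjusted p = 0.00962) before it fell, and the step from day 5 to day 6 was -1.53 (SE 0.29, adjusted p = 0.000205).

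Pcdh7 (chr5:57717967-58133230, plus strand), known as NF-protocadherin for its part in neural fold adhesion, rose early and stayed up. Untreated aggregates averaged 0.733 ± 0.152 CPM (SD, n = 4) on day 3, and held 40.9, 53.6, 39.3 and 30.8 CPM on day 5 and 29.0, 43.5, 40.6 and 26.2 CPM on day 7. Day 7 exceeded day 3 by a log2 difference of 5.56 (SE 0.44, adjusted p = 5.33e-13), and by 5.86 with XAV939. On day 4 library 1 held 40.5 CPM and the others 6.08 to 10.01 CPM, so the step from day 3 to day 4 was 4.45 with that library and 3.43 without it, and the step from day 4 to day 5 was 1.35 with it and 2.37 without it.

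Pcdh18 (chr3:49743296-49757325, minus strand), which binds the adaptor Dab1, was the most abundant member outside the clusters per length in the untreated aggregates of days 5 and 7. Untreated libraries averaged 1.46 ± 0.545 CPM (SD, n = 4) on day 3, held 26.4, 12.6, 14.1 and 22.6 CPM on day 4 and 59.4, 37.1, 61.9 and 59.0 CPM on day 5. On day 7 they held 64.8, 47.8, 43.9 and 48.5 CPM. The log2 difference from day 3 to day 7 was 5.12 (SE 0.39, adjusted p = 2e-13), or 5.27 with XAV939. The steps to day 4 (log2 3.68, adjusted p = 2.09e-09) and from day 4 to day 5 (log2 1.52, adjusted p = 0.000884) were both called.

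Pcdh8 and Pcdh19 had their highest mean on day 6 in both arms. Pcdh8 (chr14:79766775-79771312, minus strand), called paraxial protocadherin for its place in the forming somites, averaged 1.29 ± 0.501 CPM (SD, n = 4) on day 3. It averaged 20.1 CPM on day 5, held 24.0, 36.5, 53.9 and 37.1 CPM on day 6 and 23.9, 18.3, 16.5 and 24.6 CPM on day 7. Day 7 exceeded day 3 by a log2 difference of 4.01 (SE 0.32, adjusted p = 5.78e-13), and by 5.12 with XAV939. The step up to day 6 (log2 0.92, adjusted p = 0.0141) was lost without library 3 of day 6 (adjusted p = 0.0736). The step down to day 7 (log2 -0.86, adjusted p = 0.0325) was lost without library 3 of day 6 or without libraries 1, 2 or 3 of day 7, each in turn (adjusted p from 0.0537 to 0.209), and in a fit of only the libraries compared (adjusted p = 0.101). Pcdh19 (chrX:133582860-133688987, minus strand), an X-linked gene known for a form of epilepsy, held 96.9, 19.6, 19.3 and 10.6 CPM on day 5, 37.7, 73.3, 65.1 and 86.3 CPM on day 6 and 6.56, 4.22, 15.8 and 8.04 CPM on day 7. The groups of days 6 and 7 did not overlap, with day 7 lower as for 7.12% of all tested genes, and the log2 difference between them was -2.93 (SE 0.53, adjusted p = 0.000368). Day 7 still exceeded day 3 by 3.15 (SE 0.58, adjusted p = 1.48e-05). The step from day 4 to day 5 was 2.66, and 1.51 without library 1 of day 5 (adjusted p = 0.0203). The 10 paraxial and presomitic markers summed to 184 CPM in that library and to 15.6 to 69.8 CPM in the others of its group. The markers summed to 180 to 386 CPM in the untreated libraries of day 6 and 149 to 274 CPM on day 7, ranges that overlap. Of the 10, however, 5 were called lower and 0 higher from day 6 to day 7, with a median log2 difference of -2.34. At that step 7.02% of all tested genes were called lower and 5.17% higher. The part of these markers in the Pcdh8 and Pcdh19 results was not tested.

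Pcdh17 (chr14:84443563-84539002, plus strand), a delta protocadherin of presynaptic terminals, averaged 0.276 CPM on day 3. Untreated libraries held 1.404, 0.682, 2.12 and 0.605 CPM on day 5 and 18.7, 3.53, 4.93 and 10.6 CPM on day 7, a wide spread in which the lowest library of day 7 was still above the highest of day 5. Day 7 exceeded day 3 by a log2 difference of 5.07 (SE 0.62, adjusted p = 7.48e-09), and by 5.22 with XAV939. Pcdh10 (chr3:45378398-45435623, plus strand), which recruits Nap1 to cell contacts, held 0.141, 0.216, 0.615 and 0.201 CPM on day 3 and 2.12, 1.36, 1.27 and 1.44 CPM on day 7. Its log2 difference was 2.38 (SE 0.44, adjusted p = 1.67e-05) in untreated aggregates, or 3.03 without library 3 of day 3. In the XAV939 arm it was 3.93, or 3.26 without library 1 of day 7. Pcdh11x averaged 0.0277 CPM (4 counts) on day 3, 0.451 on day 5 and 0.226 on day 7, a log2 difference of 2.88 (SE 0.67, adjusted p = 0.000332) from day 3 to day 7. In XAV939 aggregates it was 2.19, or 2.81 without library 4 of day 3.

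Pcdh12 (chr18:38267089-38284402, minus strand), a protocadherin of endothelium and placental trophoblast, appeared on day 7 and rested much on 1 library. Untreated libraries held 1.15, 0.171, 0.0323 and 0.0586 CPM on day 6 and 9.22, 1.51, 1.46 and 2.39 CPM on day 7, so every library of day 7 was above every one of day 6, as for 7.19% of all tested genes. Day 7 exceeded day 3 by a log2 difference of 4.86 (SE 0.72, adjusted p = 3.85e-07), or 3.83 without library 1 of day 7. The step from day 6 to day 7 was 3.33 (adjusted p = 0.000666), 2.30 without library 1 of day 7 (adjusted p = 0.0158) and 5.30 without library 1 of day 6. It was not called in a fit of only the libraries compared (adjusted p = 0.112). In XAV939 aggregates the log2 difference from day 3 to day 7 ran from 3.61 to 4.41 on leaving out each library. The 12 endothelial markers summed to 230 CPM in untreated library 1 of day 7 and to 84.4 to 159 CPM in the others. With XAV939 they summed to 44.4 to 69.2 CPM on day 7. On day 6 the sums were 28.7 to 47.2 CPM with XAV939 and 65.1 to 158 CPM without. The part of these markers in the Pcdh12 level was not tested. Every one of the 12 had counts on day 7.

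Pcdh9 (chr14:93013410-93890679, minus strand), a delta protocadherin of the developing nervous system, was present on day 3 and was not called between days 3 and 7 with all libraries in the fit. Untreated aggregates averaged 1.37 ± 0.248 CPM (SD, n = 4) on day 3 and 1.35 on day 4. Libraries then held 0.613, 0.428, 0.0646 and 0.527 CPM on day 6 and 0.870, 0.414, 0.795 and 0.996 CPM on day 7. Every untreated library of day 7 lay below the lowest of day 3 (1.16 CPM), as for the 32.1% of genes given for Pcdh1. The log2 difference between days 7 and 3 was -0.83 (adjusted p = 0.121), and a fit of only the libraries compared called it lower (-0.84, adjusted p = 0.0188), as it did 35.9% of all its tested genes. The step from day 4 to day 5 (log2 -1.64, adjusted p = 0.0177) was lost without library 3 of day 4 and without library 1 or 3 of day 5. Pcdh20 averaged 0.247 CPM on day 3 and 0.192 CPM on day 7 (log2 -0.35, adjusted p = 0.564), and the difference was 0.20 without library 3 of day 3. Pcdh15, part of the tip link of hair cells, averaged 0.077 and 0.163 CPM and was not tested.

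**Figure D3:**
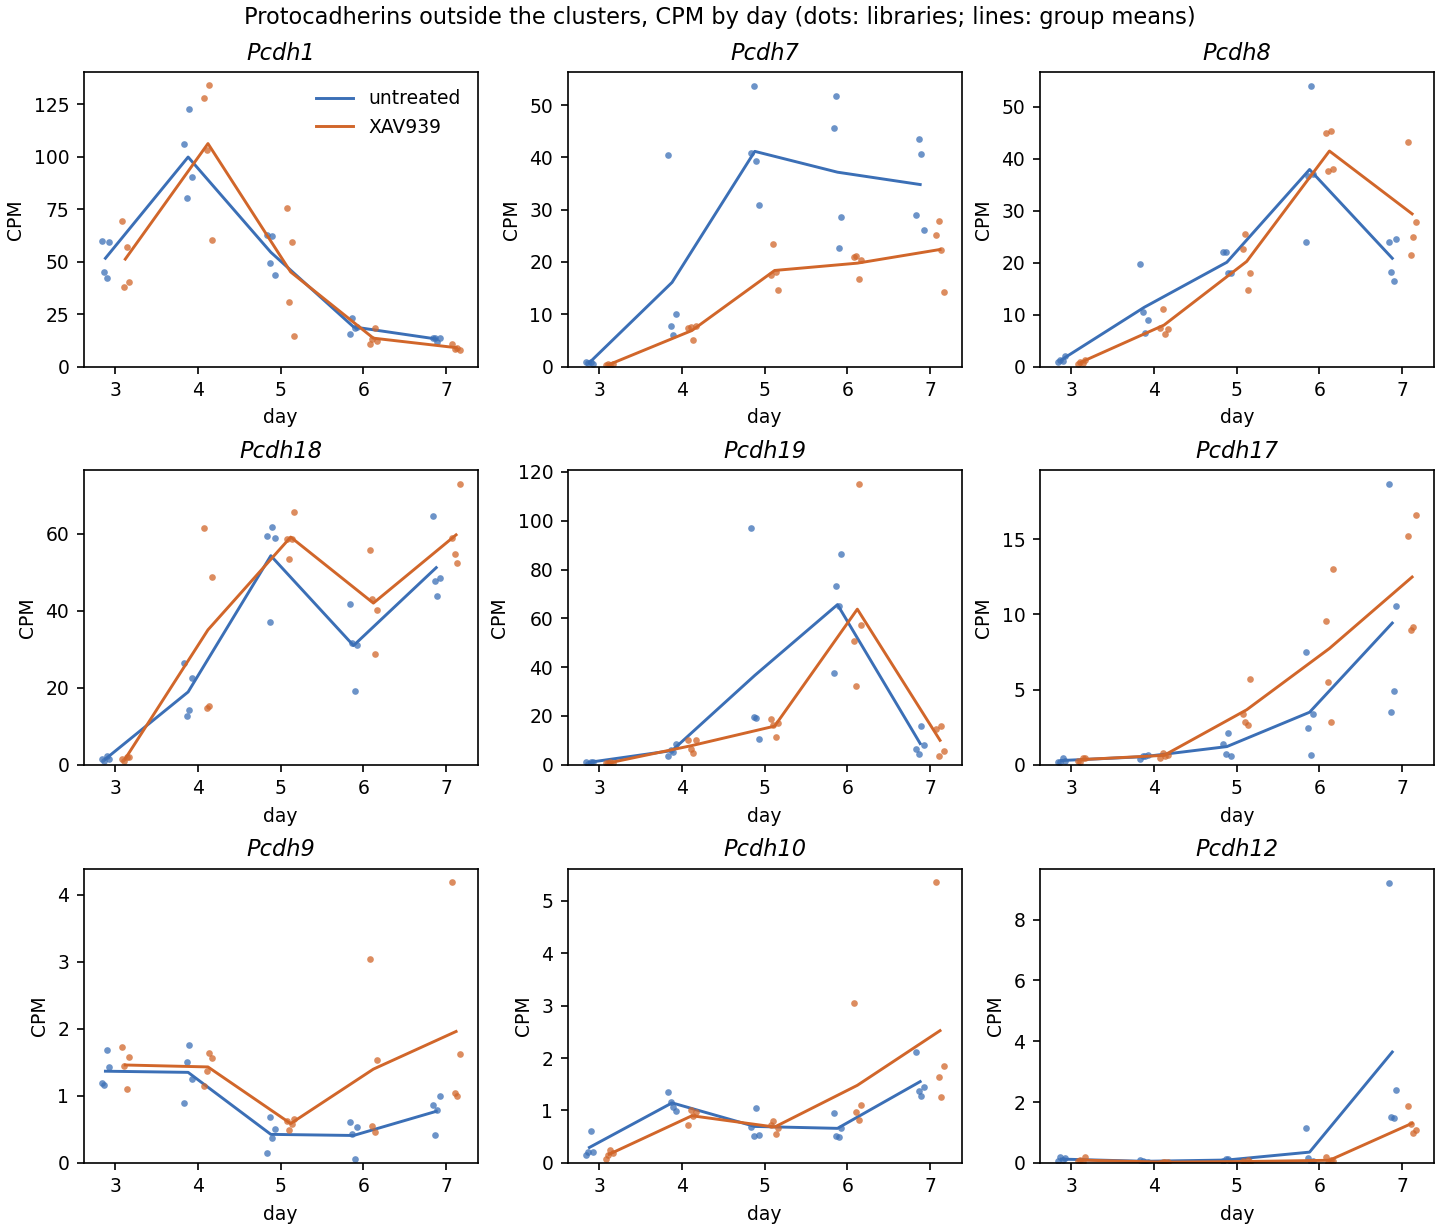
CPM of 9 protocadherins outside the clusters against day, with a dot for each library and lines through the group means of 4 libraries, untreated in blue and XAV939 in orange. Pcdh1 fell after day 4, Pcdh19 was highest on day 6 in both arms, and the 4 untreated libraries of Pcdh7 on day 5 (30.8 to 53.6 CPM) lay above the 4 XAV939 libraries (14.5 to 23.4 CPM).

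No clustered gene was called for XAV939 on any day in the fit without a block. With edgeR 0 protocadherins were called on days 3, 4, 5 and 7, where 0.00592%, 0.0178%, 2.34% and 0.00592% of all tested genes were called, and 1 (Pcdh9, higher) on day 6, where 1.39% of all tested genes were called higher and 2.95% lower. At an unadjusted p under 0.05 there were 1, 2, 4, 7 and 7 protocadherins on days 3 to 7 of the 53 tested, beside 309, 944, 2113, 2658 and 1326 of all 16878 genes. Leaving out 1 library in turn moved the day 6 count to between 0 and 3, with Pcdh17, Pcdh9 and Pcdhb4 called without untreated library 1, Pcdh9 and Pcdhb8 without XAV939 library 3, and 0 without untreated library 2 or 3 or XAV939 library 1 or 4. Pcdh7 was called lower on day 4 without untreated library 3 of that day. An interaction test of whether the arm difference on day 7 departs from that on day 3 called 0 of them and 0% of all genes. Replicate numbers paired the arms within a day, which the fit without a block leaves out. A block on replicate number gave different counts, and 1 protocadherin was called higher and 1 lower on day 5 (2.93% and 4.41% of all genes), and 4 higher and 1 lower on day 6 (4.34% and 5.9%). On days 3, 4 and 7 the block also gave 0 calls, with 0.942% of all genes called higher and 1.32% lower on day 7, and with DESeq2 1 protocadherin, Pcdh7, was called lower on day 5.

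Pcdh7 had its lower values in XAV939 aggregates. On day 5 the XAV939 libraries held 17.4, 23.4, 18.1 and 14.5 CPM and the untreated ones 40.9, 53.6, 39.3 and 30.8 CPM. On day 6 they held 20.9, 21.1, 16.8 and 20.3 CPM against 45.5, 51.7, 22.7 and 28.7 CPM. The groups did not overlap on either day, a pattern shown by 4.02% of all tested genes on day 5 and 3.82% on day 6 in the lower direction. The log2 difference on day 5 was -1.16 (SE 0.35, adjusted p = 0.0689), with adjusted p = 0.00762 under the block, 0.0294 with DESeq2 and 0.0499 without untreated library 4. On day 6 it was -0.91 (adjusted p = 0.15), and -0.84 (adjusted p = 0.0375) under the block. On day 7 it was -0.64 (adjusted p = 0.732). Pcdh7 did not have the lowest difference of the 11 tested members outside the clusters. The lowest was -1.21 on day 5, -2.04 on day 6 and -1.49 on day 7, none of them called without the block. The 10 paraxial and presomitic markers, none at 0, were lower in the same arm, with sums of 7.94 to 17.7 CPM on day 5 against 15.6 to 184 CPM without XAV939, and 95.4 to 210 against 180 to 386 CPM on day 6. Of the 10, 5 were called lower on day 5 and 2 on day 6, beside 1.43% and 2.95% of all tested genes, and their part in the Pcdh7 difference was not tested. In the F test of the 5 daily effects together Pcdh7 was the 1 protocadherin called (adjusted p = 0.0053), beside 5.8% of all tested genes. That p ran from 0.000431 to 0.0119 on leaving out each library in turn. With the block 5 protocadherins were called (13.4% of all genes), namely Pcdh7 (adjusted p = 0.00211), Pcdh17 (0.0049), Pcdh9 (0.0127), Pcdh18 (0.0173) and Pcdh10 (0.033).

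Pcdh9 was the 1 protocadherin called for XAV939 on a single day without the block. On day 6 the XAV939 libraries held 3.05, 0.551, 0.459 and 1.54 CPM and the untreated ones 0.613, 0.428, 0.0646 and 0.527 CPM, so the groups overlapped. The log2 difference was 1.75 (SE 0.50, adjusted p = 0.0362), and adjusted p = 0.00758 under the block. The call was lost without XAV939 library 1 (log2 1.04, adjusted p = 0.405), XAV939 library 4 (adjusted p = 0.0953), untreated library 2 (0.0843) or untreated library 3 (0.144), and in a fit of only the libraries of day 6 (0.396). On day 7 the XAV939 libraries held 4.19, 1.04, 0.998 and 1.62 CPM, all above the untreated ones, as for 2.09% of all tested genes, with a log2 difference of 1.35 (adjusted p = 0.28).

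With all libraries in the fit, Pcdh17 and Pcdh10 were called higher with XAV939 only under the block. For Pcdh17 the XAV939 libraries of day 5 held 3.40, 2.87, 2.66 and 5.69 CPM, all above the untreated libraries (0.605 to 2.12 CPM), a pattern that 3.44% of all tested genes showed. The log2 difference was 1.61 (SE 0.52, adjusted p = 0.103), and 1.66 (SE 0.36, adjusted p = 0.00725) under the block. On day 6 it was 1.14 (adjusted p = 0.228), 1.84 without untreated library 1 (adjusted p = 0.0417), and 1.34 under the block (adjusted p = 0.013). For Pcdh10 the XAV939 libraries of day 6 held 3.05, 0.964, 0.810 and 1.09 CPM against a mean of 0.658 CPM. The difference was 1.16 (adjusted p = 0.113), 1.05 under the block (adjusted p = 0.0151) and 0.53 without XAV939 library 1. The clustered gene Pcdhb8 was also called under the block on day 6 (log2 1.28, SE 0.39, adjusted p = 0.0449), against adjusted p = 0.0798 without it.

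Neural markers were also measured in these libraries. The 12 neuron markers summed to 487, 136, 114 and 200 CPM in XAV939 libraries 1 to 4 of day 6 and to 65.5 to 99.8 CPM in the untreated ones, and to 1191, 652, 259 and 554 CPM against 124 to 303 CPM on day 7. Library 1, the highest in Pcdh9 and Pcdh10 on both days, was also the highest in this sum. The 8 neural progenitor markers summed to 461 to 750 CPM with XAV939 and 233 to 395 CPM without on day 6. Both sums were also high early. In untreated libraries the neuron markers summed to 154 to 178 CPM on day 3 and 223 to 266 CPM on day 4. The progenitor markers summed to 310 to 329 CPM on day 3. Neither sum therefore measures neural cells alone. On day 6, 5 of the 12 neuron markers and 3 of the 8 progenitor markers were called higher, beside 1.39% of all tested genes. On day 7 0 of either list were called with edgeR, and on day 5 0 of the 12 and 1 of the 8 were called higher, beside 0.912% of all genes. The part of neural cells in the protocadherin differences was not tested.

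Among the clustered genes the mean Pcdhb sums were higher with XAV939 from day 5 on, and none of the genes was called in the fit without a block. On day 7 the summed level of the 22 genes was 35.5, 38.7, 21.6 and 30 CPM with XAV939 and 28.3, 29.7, 21.5 and 20.7 CPM without, so the groups overlapped. All 11 tested genes from Pcdhb1 to Pcdhb15 had a positive difference on day 7, with a median log2 difference of 0.79, and 5 of them an unadjusted p under 0.05, beside 1326 of all 16878 genes and a median of -0.0089 over those. Of the 7 genes from Pcdhb16 to Pcdhb22, 6 were positive, with a median of 0.20, and 0 had such a p. The order was the other way on day 5, with a median of 0.41 (9 of 11 positive) for Pcdhb1 to Pcdhb15 and 0.51 (7 of 7) for Pcdhb16 to Pcdhb22. On day 6 the medians were 0.61 and 0.32. The split was chosen after values were seen, and a difference between its sides was not tested. These genes share libraries and are not replicates of each other. For Pcdhb22 the difference on day 7 was 0.03 (SE 0.31), and its sign turned without untreated library 4 (-0.08) or XAV939 library 2 (-0.17), with a mean of 6.94 ± 1.97 CPM with XAV939 against 6.78 ± 1.27 CPM without (SD, n = 4).

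**Figure D4:**
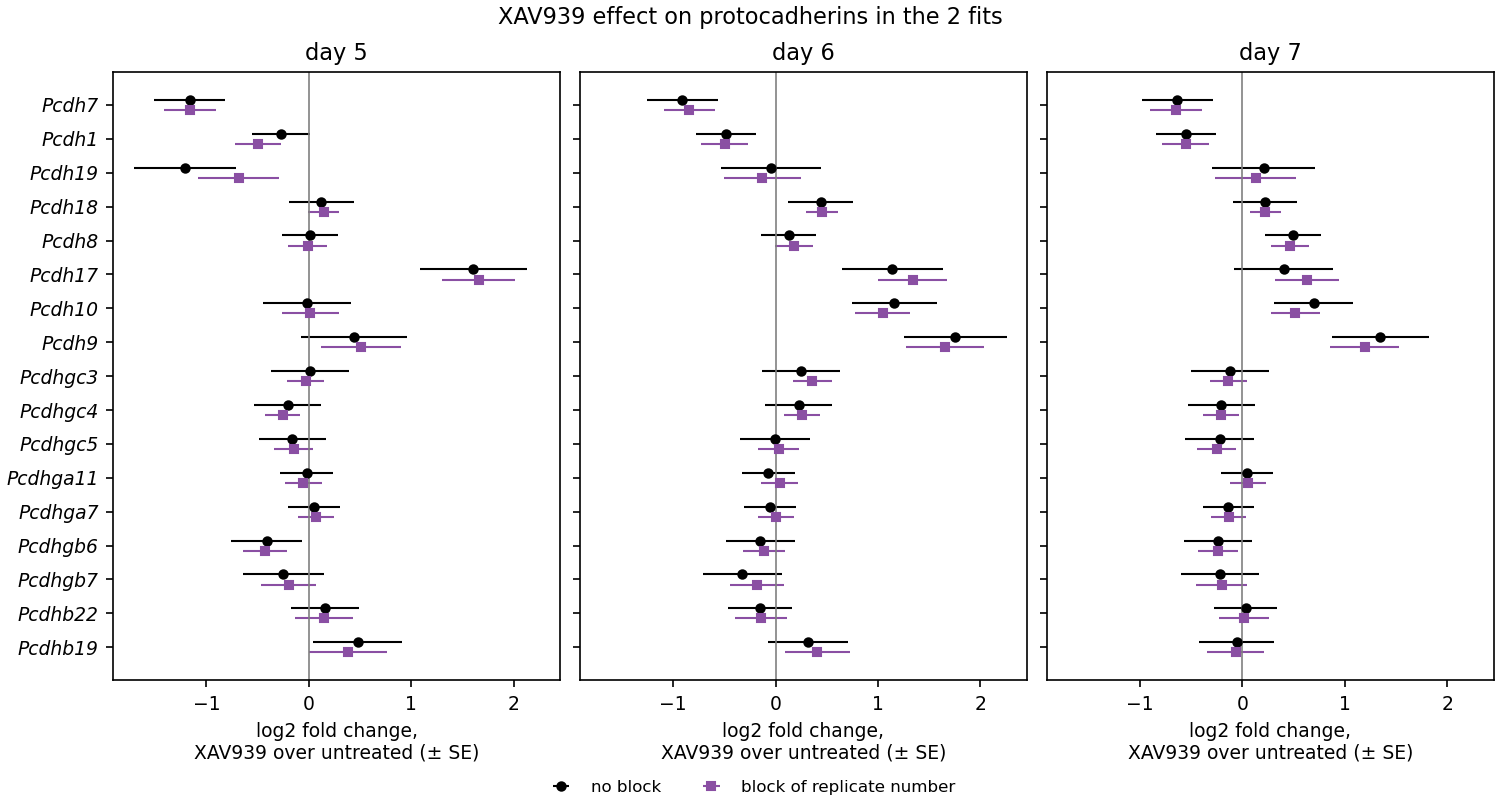
Log2 fold change of XAV939 over untreated (± SE) on days 5, 6 and 7 for 17 protocadherins, from the fit without a block (black circles) and from the fit blocked on replicate number (purple squares). Pcdh7 lies left of 0 on all 3 days and Pcdh9 right of it, and the Pcdhg genes lie within 0.5 of 0.

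Genes that act on the clustered promoters or with the protocadherin proteins were read from lists. Of 19 regulators of the clustered promoters, 3 were called higher and 4 lower from day 3 to day 7 in untreated aggregates, beside 34.7% of all tested genes called higher and 32.6% lower. Dnmt3b, the methyltransferase that methylates alternate Pcdh promoters in the early embryo, fell from 1797 ± 222 to 115 ± 26.6 CPM (SD, n = 4), a log2 difference of -3.97 (SE 0.28, adjusted p = 2.42e-14). Dnmt3a, the related de novo methyltransferase, fell from 493 to 124 CPM (log2 -1.99, SE 0.19, adjusted p = 2.95e-11). Atf7ip, a partner of the methyltransferase Setdb1, was lower (log2 -0.83, adjusted p = 0.000211) and Wiz, a zinc finger protein that binds beside CTCF, was higher (log2 0.93, adjusted p = 0.000518). A fit of only the libraries compared called 7 of the 19 lower. With XAV939 0 of the 19 were called on day 5 or 6, and 1 was called lower on day 6 under the block, with DESeq2 and without untreated library 4.

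Of 10 members of the WAVE actin-regulatory complex, which binds the tails of several protocadherins, 2 were called higher and 3 lower from day 3 to day 7, against the same 34.7% and 32.6% of all tested genes. Nckap1l (log2 -2.37, adjusted p = 2.86e-09), Cyfip2 (-1.34, 0.000136) and Wasf2 (-0.68, 0.000598) fell, and Abi2 rose (0.42, 0.00769). For XAV939 on days 5 and 6 Nckap1l alone was called, lower on day 6 (log2 -0.95, adjusted p = 0.0354). That call was lost without untreated library 2 or 3 or XAV939 library 1, 2 or 4, each in turn, and in a fit of only the libraries of day 6. Another member was called higher on day 6 under the block and without untreated library 4. Of 14 cytoplasmic partners and proteases 6 were called higher and 2 lower at that step, again beside 34.7% and 32.6%. Ret, a receptor tyrosine kinase that associates with clustered protocadherins, rose from 1.31 to 31.6 CPM (log2 4.59, SE 0.38, adjusted p = 1.01e-12). Ptk2b (Pyk2), a kinase that the Pcdha and Pcdhg tails inhibit, fell from 38.9 to 4.54 CPM (log2 -3.10, SE 0.27, adjusted p = 3.21e-12). Adam10, the sheddase that cuts Pcdhg proteins, rose from 33.5 to 174 CPM (log2 2.38, adjusted p = 2.99e-11), and Marcks rose by a log2 difference of 1.71 (adjusted p = 1.79e-10). With XAV939 0 of the 14 were called on day 5 or 6, and 1 was called higher on day 5 under the block.

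Of the other members of the cadherin superfamily 37 of 48 were tested, and 21 were called higher and 12 lower from day 3 to day 7, beside 34.7% and 32.6% of all tested genes. Dchs1, a partner of Fat4, rose from 0.972 to 90.1 CPM (log2 6.54, SE 0.35, adjusted p = 9.81e-17). Cdh2 (N-cadherin) rose from 5.03 to 237 CPM (log2 5.56, SE 0.31, adjusted p = 1.82e-16). Cdh6 rose from 0.150 to 73.9 CPM (log2 8.91, SE 0.66, adjusted p = 1.17e-13) and Cdh11 from 3.2 to 139 CPM (log2 5.44, SE 0.43, adjusted p = 4.52e-13). With XAV939 3 were called higher and 4 lower on day 6, beside 1.39% and 2.95% of all genes, and 1 higher and 2 lower on day 5, beside 0.912% and 1.43%. On day 6 the block called 8 higher and DESeq2 5, 6 were called higher without untreated library 4 and 0 without XAV939 library 1. On day 5 the block called 3 higher and 6 lower, and leaving out any 1 of untreated libraries 1 and 2 and XAV939 libraries 2 and 4 left 0 calls. A fit of only the libraries of either day called 0 in each direction.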

How the data were processed

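Poly(A) RNA of 40 libraries was sequenced. Per the labels' protocols, the libraries were stranded TruSeq preparations of 300 ng of RNA, read as 81 bp pairs. Software named in the submitters' processing notes is bcl2fastq 2.20.0, with mm10 as the genome build. The aligner, the counter, the annotation and the strand setting were not given in the sources used here. Raw counts per gene were deposited by the authors as whole numbers, with no normalisation. Of 26906 identifiers 26857 were matched to GENCODE M21 for coordinates and exon lengths and 49 were not. In a search for duplicates, the 60 within-group pairs of libraries had a chi-square per gene of 10.9 or more, and none was treated as a copy.

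Tests used edgeR 4.0.16, with limma 3.58.1, under R 4.3.3. A low-count filter (filterByExpr with the 10 groups, counts of at least 10 and totals of at least 15) kept 16878 genes, TMM factors ran from 0.874 to 1.09, and 1 robust quasi-likelihood model with a mean per group was fitted to all libraries (30 residual degrees of freedom, prior 5.19). Calls took a Benjamini-Hochberg adjusted p below 0.05 over all tested genes. Levels per kb divide the whole count of a gene by its exon bases shared with no other gene, for genes with at least 1000 such bases. A fold against a group with 0 counts is a bound from 3 counts over the group. Named are all protocadherins outside the clusters, all C-type genes, the 2 most abundant genes and the largest rise of each other subfamily, every clustered gene called for XAV939, and 4 genes of each further list by adjusted p. Pcdha11, Pcdhb8, Pcdhb4 and Pcdhgb4 fall outside this rule and were chosen after their values were seen, as were the genes listed as not tested. Members and lists were chosen with earlier results of these data known.

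Replicate numbers come from the titles. Within a day, deviations of libraries with the same number in both arms correlated at 0.117 to 0.441 in all 20 pairs, and all 20 were highest for their own number. The arms were therefore treated as paired within a day by the replicate block. The main fit has no block and leaves that pairing out. Between adjacent untreated days the 16 correlations ran from -0.0739 to 0.385, 10 of them highest for their own number, and between days 3 and 7 the 8 ran from -0.0599 to 0.155, so days were not taken as paired. Alternatives were no filter, DESeq2 1.42.0, relative log expression size factors, a fit of only the libraries compared, the replicate block and leaving out each library. The block was set within each day for the XAV939 results. For differences between days it held 1 effect per replicate number over all days, although days were not taken as paired. On simulated counts for the XAV939 effect on day 6 (16770 genes), 70% of 2-fold and 91.9% of 4-fold changes were recovered and 5.85% of calls were false. The changed genes were drawn from all tested genes, and the simulation held no pairing of the arms and no outlying libraries. These rates therefore do not give the recovery for protocadherins.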

Additional observations from a re-analysis of the deposited data

Results flagged for a closer look

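Dixon's test was run on groups of 4 libraries, for single genes with a group mean of at least 0.5 CPM and for class sums at any mean. In 20 of 208 such groups 1 library lay far from the other 3. Chance gives such a library in about 1 in 20 groups, and sums share their libraries with their members. Among untreated libraries of day 4, library 1 was high in Pcdhgc3 (82.2 CPM, others 17.7 to 26.4), Pcdh7 (40.5 CPM, others 6.08 to 10.01) and Pcdhgb7 (1.27 CPM, others 0.473 to 0.544). The same library was high in the sum of the Pcdhgc genes (98.2 CPM, others 21.7 to 33.0) and in the sum of all clustered genes (126.6 CPM, others 38.9 to 53.3). On day 5 untreated library 1 was high in Pcdh19 (96.9 CPM, others 10.6 to 19.6), Pcdhgb6 (2.30 CPM, others 1.34 to 1.41) and Pcdhga11 (5.52 CPM, others 3.999 to 4.24). Untreated library 2 of that day was low in Pcdh18 (37.1 CPM, others 59.0 to 61.9). On day 7 untreated library 1 was high in Pcdh12 (9.22 CPM, others 1.46 to 2.39). It was also high in the sums of the Pcdhga and Pcdhgb genes (68.6 CPM, others 52.8 to 55.4), of all clustered genes (174.4 CPM, others 135.6 to 142) and of the members outside the clusters (169.4 CPM, others 134.4 to 137.8). Untreated library 2 of day 7 was high in Pcdhgc5 (2.05 CPM, others 1.72 to 1.74) and library 3 low in Pcdh1 (11.8 CPM, others 13.5 to 13.7). On day 3 untreated library 2 was low in Pcdh19 (0.323 CPM, others 1.12 to 1.28).

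In the XAV939 arm, library 1 was high in Pcdh10 on day 6 (3.05 CPM, others 0.810 to 1.09) and on day 7 (5.35 CPM, others 1.25 to 1.84). On day 7 it was also high in the sum of the Pcdhgc genes (80.0 CPM, others 48.7 to 53.5). On day 4 XAV939 library 3 was low in Pcdh7 (5.07 CPM, others 7.28 to 7.66).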

How the results depend on the processing

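Alternatives were run for 118 single-gene results, and the sign turned for Pcdhb22 with XAV939 on day 7 and Pcdh20 from day 3 to day 7, neither of them called. For Pcdhb22 the log2 difference of 0.03 ran from -0.17 to 0.15 on leaving out each library, at -0.08 without untreated library 4 and -0.17 without XAV939 library 2. For Pcdh20 it ran from -0.68 to 0.20, the last without untreated library 3 of day 3. Of the 118, 118 kept their side of the threshold with size factors by relative log expression, and 115 with DESeq2, where 1 became called. Without the filter 114 kept it and 4 lost their call, and in a fit of only the libraries compared 91 kept it, 13 lost their call and 1, Pcdh9 from day 3 to day 7, became called. With the replicate block, set within each day for XAV939 and over all days for differences between days, 111 kept it and 7 became called. The block gave 1 protocadherin called higher and 1 lower for XAV939 on day 5, 4 higher and 1 lower on day 6, 5 in the F test, 5 lower from day 5 to day 6 and 15 higher from day 6 to day 7, and changed no other count of calls by over 1.5 times. DESeq2 gave 1 lower for XAV939 on day 5. A fit of only the libraries compared gave 0 higher for XAV939 on day 6, 2 lower from day 3 to day 7, 23 higher from day 3 to day 4, 12 higher from day 4 to day 5, 5 higher from day 5 to day 6, and 1 higher and 1 lower from day 6 to day 7. Without the filter 5 were called higher from day 6 to day 7. Leaving out each library in turn, the XAV939 counts ran from 0 to 1 lower on day 4, 0 to 1 lower on day 5 and 0 to 3 higher on day 6, and from 1 to 2 in the F test. The steps between untreated days ran from 13 to 28 higher and 0 to 2 lower (day 4 to day 5), 5 to 13 higher (day 5 to day 6), and 3 to 16 higher and 1 to 2 lower (day 6 to day 7). Per kb of all exons Pcdhgc3 was at 10.5 CPM per kb on day 7, against 31.6 per unshared kb. Depth limits the Pcdha genes most, since 11 of 12 had too few counts to test. The fits of only the libraries compared held fewer libraries and also filtered anew. They tested fewer protocadherins, 17 clustered and 8 other from day 3 to day 4. The cause of these changes was not tested.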
